A study of Mus musculus with 6 samples.

Results

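Platelets and their precursors, the megakaryocytes, sense exposed collagen through glycoprotein VI (Gp6) and podoplanin through CLEC-2 (Clec1b), and the 10 genes described here encode these receptors and the proteins that carry their signal inwards. They are Gp6, Clec1b, Fcer1g, Lyn, Fyn, Syk, Btk, Lat, Lcp2 and Plcg2, taken by gene symbol from the deposited expression table, where all 10 were found among 24410 symbols. The cells came from bone marrow of C57BL/6 mice that were 5 months old, either wild type (WT) or Txnip -/- (KO), a genotype for which the labels name neither the allele's construction nor any restriction to a tissue. Marrow cells without lineage markers were kept for 3 days in serum-free medium with additives that included 10% FBS and 100 ng/mL murine Scf, and the CD41+ cells were then sorted for RNA. There were 3 libraries of each genotype (WT 1 to WT 3 and KO 1 to KO 3), and the question was which transcripts differ without Txnip.

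In this pathway a receptor on the cell surface carries, or is paired with a chain that carries, an immunoreceptor tyrosine-based activation motif (ITAM). When the receptor is clustered by its ligand, the Src family kinases Lyn and Fyn phosphorylate the tyrosines of the motif, and the kinase Syk docks there and is activated. Syk then builds a complex on the adaptors Lat and Lcp2 (SLP-76) in which Btk and phospholipase C gamma 2 (Plcg2) come together, and the phospholipase releases the messengers that raise calcium. Gp6 has no such motif of its own and signals through the Fc receptor gamma chain, Fcer1g. Clec1b has a single tyrosine of this type in its own tail and is therefore called a hemITAM receptor.

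The coding stretches of these tyrosine motifs are shown because they define the family. They were found by translating the GENCODE transcripts Fcer1g-201 and Clec1b-201 (GRCm38). Capitals mark the tyrosine codons, of which Fcer1g has 2 in residues 65 to 79 of 86 and Clec1b has 1 in residues 3 to 10 of 229.
Fcer1g: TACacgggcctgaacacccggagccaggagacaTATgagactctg
Clec1b: gatgaagatgggTATatcacttta

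The promoters of the receptors and of the gamma chain are shown because these genes stood at opposite ends of the levels described below. Each runs from 250 bases before to 50 bases after a listed promoter start on GRCm38.p6, a later build than the mm9 of the deposited values. For Clec1b and Fcer1g the listed start is that of the RefSeq gene. The RefSeq gene Gp6 starts at chr7:4397851 on the minus strand, inside the window shown but not at its listed start. Gp6 is at chr7:4397695-4397994 on the minus strand, Clec1b at chr6:129397047-129397346 on the plus strand and Fcer1g at chr1:171234300-171234599 on the minus strand. Capitals mark GATAA or its reverse complement TTATC, the core bound by GATA factors, and AGGAAG or CTTCCT, a core bound by ETS factors, with no overlap between matches.
Gp6: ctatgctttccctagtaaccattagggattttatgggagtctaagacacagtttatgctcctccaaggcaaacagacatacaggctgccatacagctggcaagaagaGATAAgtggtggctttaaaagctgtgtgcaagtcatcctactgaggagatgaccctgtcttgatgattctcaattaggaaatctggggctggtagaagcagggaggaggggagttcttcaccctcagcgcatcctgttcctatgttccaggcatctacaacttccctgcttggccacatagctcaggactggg
Clec1b: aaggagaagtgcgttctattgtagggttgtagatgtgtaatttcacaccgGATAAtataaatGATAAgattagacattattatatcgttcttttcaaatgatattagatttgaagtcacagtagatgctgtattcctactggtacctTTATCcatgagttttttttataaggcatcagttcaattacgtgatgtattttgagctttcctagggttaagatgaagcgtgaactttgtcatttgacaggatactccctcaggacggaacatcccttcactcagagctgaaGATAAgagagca
Fcer1g: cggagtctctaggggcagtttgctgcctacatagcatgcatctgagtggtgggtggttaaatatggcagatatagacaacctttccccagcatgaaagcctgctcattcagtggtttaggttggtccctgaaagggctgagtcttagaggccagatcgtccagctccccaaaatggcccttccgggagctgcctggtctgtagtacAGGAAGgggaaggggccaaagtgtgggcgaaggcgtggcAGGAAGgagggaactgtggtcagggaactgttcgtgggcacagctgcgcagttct
Gp6 held GATAA at 1 place, starting 143 bases before its listed start, and Clec1b held it or its complement at 4 places, 3 of them before the start. Fcer1g held none, but held AGGAAG at 2 places, starting 44 and 5 bases before the start, and neither receptor promoter held AGGAAG. Over all 32544 promoters of this length, 25.3% held GATAA and 35.1% held AGGAAG on either strand. Of the 10 promoters listed for 9 of the members (Syk has 2), 5 held GATAA and 4 held AGGAAG. Lyn had no entry. These matches describe letters in a window and show no binding.

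The measure is FPKM (fragments per kilobase of a transcript, scaled to each library's mapped fragments), which is per length, so levels of different genes can be set side by side as estimates. Values of a genotype are listed in the order of libraries 1, 2 and 3. FPKM sums ran from 715205 to 1131641 per library, and the depth of the libraries is not stated in the file. Txnip was at 112, 228 and 143 FPKM in the WT libraries and at 0, 0.04 and 0 in the KO libraries, so the libraries match their genotype labels. The sorted cells held RNA of the megakaryocyte lineage together with RNA of other myeloid cells. Summed over 15 megakaryocyte markers, of which 0 were at 0 in every library, FPKM lay between 680 and 1831 in WT and between 718 and 1935 in KO. The sums were 1044 to 1514 in WT and 618 to 1358 in KO for 13 mast cell and basophil markers, 5912 to 7540 and 3941 to 8947 for 14 neutrophil and granulocyte precursor markers, 729 to 984 and 819 to 1931 for 23 monocyte, macrophage and dendritic cell markers, and 447 to 769 and 207 to 588 for 9 eosinophil markers. They were 259 to 362 and 218 to 314 for 14 erythroid markers and 380 to 490 and 332 to 420 for 10 stem and progenitor markers. Of 12 B cell markers only Cd79b reached 1 FPKM in 3 libraries, with Pax5 and Ebf1 at 0 throughout (sums 9.52 to 15.7 and 10.7 to 16.7). Of 12 T and NK cell markers Nkg7 and Klrd1 did, with Cd3e at 0 (sums 89.2 to 120.2 and 84.2 to 101). The 12 endothelial and stromal markers summed to 6.20 to 8.04 and 6.12 to 6.95 FPKM, with Cxcl12 and Col3a1 at 0. In every library Pf4 made up most of the megakaryocyte sum and Prg2 most of the eosinophil sum.

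The receptors were the scarcest members and the gamma chain the most abundant. Gp6 was at 0.53, 1.37 and 0 FPKM in the WT libraries and at 0.22, 0.19 and 0.49 in the KO libraries. It reached 1 FPKM in WT 2 alone, and the KO values lay inside the range of the WT values. Clec1b was at 0.59, 5.41 and 0.43 FPKM in the WT libraries and at 0.50, 3.70 and 2.07 in the KO libraries. Both libraries numbered 2 were high for Clec1b, both numbered 1 were low, and the genotypes overlapped. Fcer1g was at 124, 87.7 and 91.6 FPKM in the WT libraries and at 151, 75.1 and 42.0 in the KO libraries. KO 1 was the highest and KO 3 the lowest of the 6 libraries, so the KO range enclosed the WT range. Within a library the FPKM of Fcer1g was between 16.2 and 301 times that of Clec1b, and in the 5 libraries where Gp6 was above 0 it was between 64.0 and 685 times that of Gp6.

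Below the receptors, RNA of every component was present in each library. These were mixed cells, and which of them held the RNA of each component was not tested. Plcg2, the phospholipase, was at 79.3, 68.2 and 79.5 FPKM in the WT libraries and at 78.0, 94.9 and 69.6 in the KO libraries. Its highest value was in KO 2 and its lowest in WT 2, both numbered 2. Syk was at 52.5, 37.4 and 43.5 FPKM in the WT libraries and at 63.5, 53.5 and 44.8 in the KO libraries. Each KO library was above the WT library of the same number, but KO 3 and WT 1 overlapped the other group.

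Among the Src family kinases, Lyn was at 51.6, 42.5 and 42.3 FPKM in the WT libraries and at 63.8, 51.1 and 43.2 in the KO libraries. As with Syk, each KO library was above the WT library of its number and the groups overlapped. Fyn was at 13.8, 7.59 and 10.7 FPKM in the WT libraries and at 14.99, 11.2 and 6.63 in the KO libraries. Both libraries numbered 1 were the highest for Fyn and KO 3 was the lowest. Lyn was above Fyn in all 6 libraries, by 3.75 to 6.52 times. Btk, the Tec family kinase that phosphorylates the phospholipase, was at 53.5, 35.7 and 40.04 FPKM in the WT libraries and at 58.0, 36.0 and 42.8 in the KO libraries, so values of the same number lay close together.

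The adaptors differed in which libraries were high. Lat, the membrane adaptor, was at 15.8, 30.1 and 20.9 FPKM in the WT libraries and at 19.3, 28.6 and 19.5 in the KO libraries. Lcp2, the cytosolic adaptor that binds Lat through a bridging protein, was at 40.1, 28.4 and 24.3 FPKM in the WT libraries and at 46.8, 25.1 and 28.7 in the KO libraries. Lat was highest in the libraries numbered 2 and Lcp2 in those numbered 1, in both genotypes.

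**Figure D1:**
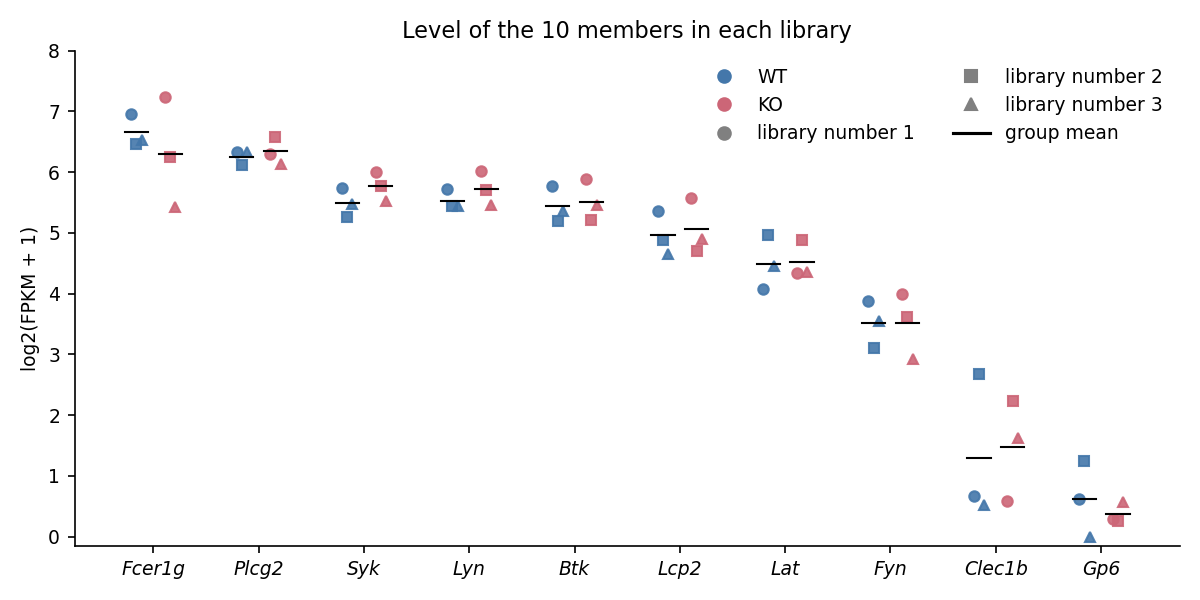
Level of each of the 10 genes in each library on the log2(FPKM + 1) scale, ordered by mean level; blue is WT, red is KO, the symbol gives the library number and the black bars are group means (n = 3 each). WT and KO symbols overlap for every gene, and Clec1b and Gp6 stand below the other 8.

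Ordered by mean FPKM over the 6 libraries, the levels were 95.1 for Fcer1g, 78.2 for Plcg2, 49.2 for Syk, 49.1 for Lyn, 44.3 for Btk, 32.2 for Lcp2, 22.4 for Lat, 10.8 for Fyn, 2.12 for Clec1b and 0.467 for Gp6. Plcg2 over Syk, Lat over Fyn and Fyn over Clec1b were steps at which the ranges of the neighbours did not overlap. Btk was above Lcp2, and Clec1b above Gp6, in 6 of 6 libraries with overlapping ranges. The remaining neighbours did not keep their order in every library: Fcer1g was above Plcg2 in 4 of 6, Syk above Lyn in 4, Lyn above Btk in 5 and Lcp2 above Lat in 4. The levels of Syk and Lyn therefore differed by less than their spread, which was 9.23 and 8.38 FPKM (SD, n = 6).

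Against genotype, 0 of the 9 tested members passed in the comparison of KO with WT (limma on log2(FPKM + 1), Benjamini-Hochberg adjustment over 11249 genes, adjusted p = 1.00 for each), where 0.0178% of all tested genes did. Gp6 was below the minimum of 1 FPKM in 3 libraries and was not tested. Of the other 9, 0 had an unadjusted p under 0.05, against 0.676% of all genes. The KO values lay wholly above the WT values in 0 of 9 members, against 3.32% of all genes, and below them in 0 of 9, against 1.03% (4.35% in either direction). Libraries that share a number deviated together from their group means, and with the number as a block again 0 of 9 passed, the smallest adjusted p being 0.777, where 0.0267% of all genes did. With the block 0 of 9 had an unadjusted p under 0.05, against 6.93% of all genes.

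The estimates still bound how large a difference could be. Plcg2 differed by 0.09 on the log2 scale (SE 0.20, 95% interval −0.38 to 0.55), which corresponds to KO at between 0.771 and 1.46 times WT. For Syk the difference was 0.27 (SE 0.22, interval −0.23 to 0.78, or 0.851 to 1.72 times), and with the block the interval was −0.06 to 0.61. Lyn differed by 0.20 (SE 0.22, interval −0.29 to 0.69) and by the same amount with the interval −0.12 to 0.52 under the block. Btk differed by 0.07 (interval −0.50 to 0.64), Lcp2 by 0.09 (−0.57 to 0.76), Lat by 0.03 (−0.61 to 0.67) and Fyn by 0.00 (−0.75 to 0.76). Without the block, intervals also carry the spread between library numbers. With it they were −0.24 to 0.38 for Btk, −0.24 to 0.43 for Lcp2 and −0.30 to 0.36 for Lat. For Fyn the block gave −0.45 to 0.46 and for Plcg2 −0.28 to 0.45. With 3 libraries a genotype, these intervals do not show that the genotypes are alike.

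The widest intervals belonged to the receptor and the gamma chain. Clec1b differed by 0.19 (SE 0.62, interval −1.22 to 1.60), with differences of −0.08, −0.45 and 1.10 in pairs 1, 2 and 3. Fcer1g was the only tested member with a lower mean log2 value in KO, by −0.35 (SE 0.41, interval −1.28 to 0.59), with pair differences of 0.28, −0.22 and −1.11. The negative sign of Fcer1g rested on KO 3: without it the difference was 0.09. With the block the intervals were −0.46 to 0.84 for Clec1b and −0.85 to 0.15 for Fcer1g. Without WT 1, WT 3 or KO 2 the sign of Clec1b turned, to −0.12, −0.20 and −0.19. Gp6, tested only when no minimum was set, differed by −0.25 (SE 0.30, limma, adjusted p = 1.00).

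**Figure D2:**
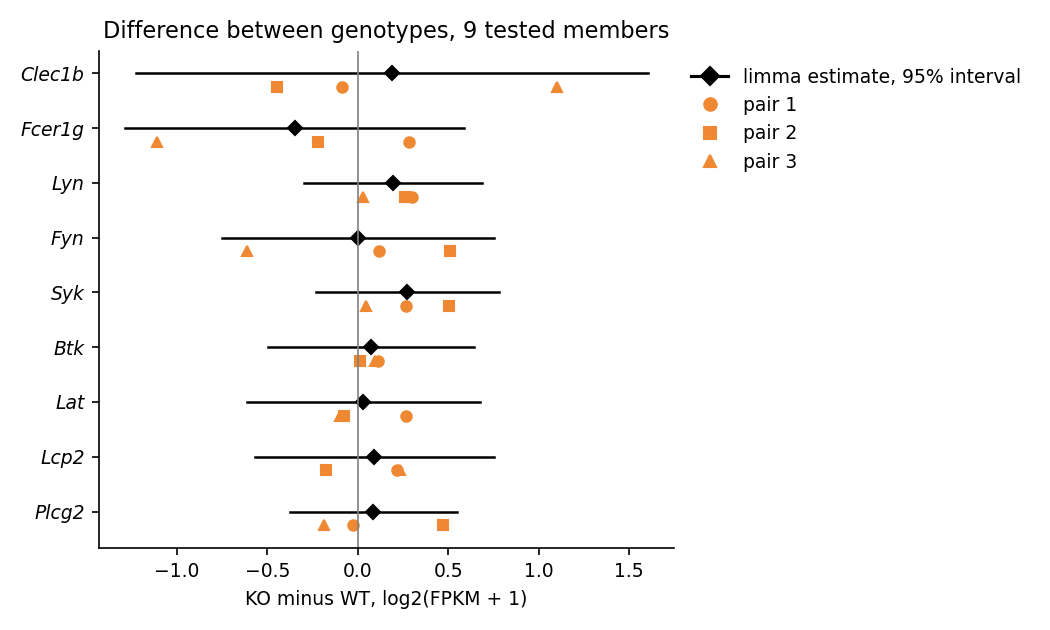
KO minus WT on the log2(FPKM + 1) scale for the 9 tested genes; black diamonds and lines are the limma estimate with its 95% interval (3 WT and 3 KO libraries) and orange symbols are the differences within pairs 1, 2 and 3. Every interval includes 0, and the 3 pairs lie on 1 side of 0 for Lyn, Syk and Btk.

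The kinase genes Syk, Lyn and Btk were higher in KO in each pair, by 0.27, 0.51 and 0.04 for Syk, 0.30, 0.26 and 0.03 for Lyn and 0.11, 0.01 and 0.09 for Btk. That is 3 of 9 members, against 20.4% of all tested genes, and 0 of 9 were lower in each pair, against 8.68%. In mean log2 value, 8 of 9 were above WT, against 63.4% of all genes, and 1 of 9 was below, against 36.6%. The count above was 6 of 9 with quantile normalization, where Fyn and Lat turned. It was 4 of 9 relative to megakaryocyte markers, where Btk and Plcg2 turned as well. That last setting shifts every gene by the same amount, and the share of all genes above WT was not counted in either setting. The median difference of the members was 0.09 and that of all genes 0.06. With quantile normalization they were 0.067 and 0.0077, and relative to megakaryocyte markers −0.0019 and −0.027. Without KO 2 they were −0.035 and 0.11. Rescaling the libraries to a common sum moved both, to 0.26 and 0.22. The small RNAs Rpph1 and Rmrp made up between 10.7% (WT 3) and 30.4% (WT 2) of that sum. Rescaling without them gave 0.20 for the members and 0.16 for all genes.

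The members also varied by library number. The range of the 3 pair means, each over the WT and the KO library that share a number, was 1.83 on the log2 scale for Clec1b, 1.12 for Fcer1g, 0.72 for Lat, 0.70 for Fyn, 0.69 for Lcp2, 0.62 for Btk, 0.42 for Lyn, 0.38 for Syk and 0.11 for Plcg2. Pair 1 had the highest pair mean for Fcer1g, Lyn, Fyn, Syk, Btk and Lcp2, and pair 2 for Clec1b, Lat, Plcg2 and the untested Gp6. Libraries 1 and 2 of both genotypes held the Y-linked Ddx3y, at 22.8 to 41.7 FPKM, and libraries 3 held Xist, at 48.1 and 91.6, so the number also separates sexes; Btk is X-linked, and the part of sex in its values was not tested.

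Sums of cell type markers are set here beside the receptors and the gamma chain. The megakaryocyte marker sum was 680, 1831 and 1428 FPKM in the WT libraries and 718, 1935 and 1066 in the KO libraries, highest in the libraries numbered 2, as was Clec1b within each genotype. Pf4 alone made up most of it, at 465, 1435 and 1129 FPKM in WT and 476, 1545 and 772 in KO. The mean log2(FPKM + 1) of these markers, in which each gene counts alike, was 3.37, 4.01 and 3.84 in WT and 3.62, 4.05 and 3.81 in KO. In WT 3, however, Clec1b was at its lowest while the marker sum was the third highest of the 6. Gp6 did not follow the sum: it was at 0.19 FPKM in KO 2, where the sum was highest, and at 0 in WT 3. Fcer1g pairs in mast cells and basophils with the IgE receptor chains Fcer1a and Ms4a2 and in monocytes and macrophages with IgG receptors. The mast cell and basophil sum was 1514, 1128 and 1044 FPKM in the WT libraries and 1358, 1082 and 618 in the KO libraries. It was lowest in KO 3, as Fcer1g was, but highest in WT 1, where Fcer1g was not. The monocyte, macrophage and dendritic cell sum was 871, 729 and 984 in the WT libraries and 1931, 819 and 888 in the KO libraries, highest in KO 1, as Fcer1g was. In KO 3, however, where Fcer1g was lowest, this sum was above those of WT 1, WT 2 and KO 2. In bulk RNA, fewer cells of a type and less RNA per cell cannot be told apart, and the part of these cells in the values of Fcer1g was not tested.

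**Figure D3:**
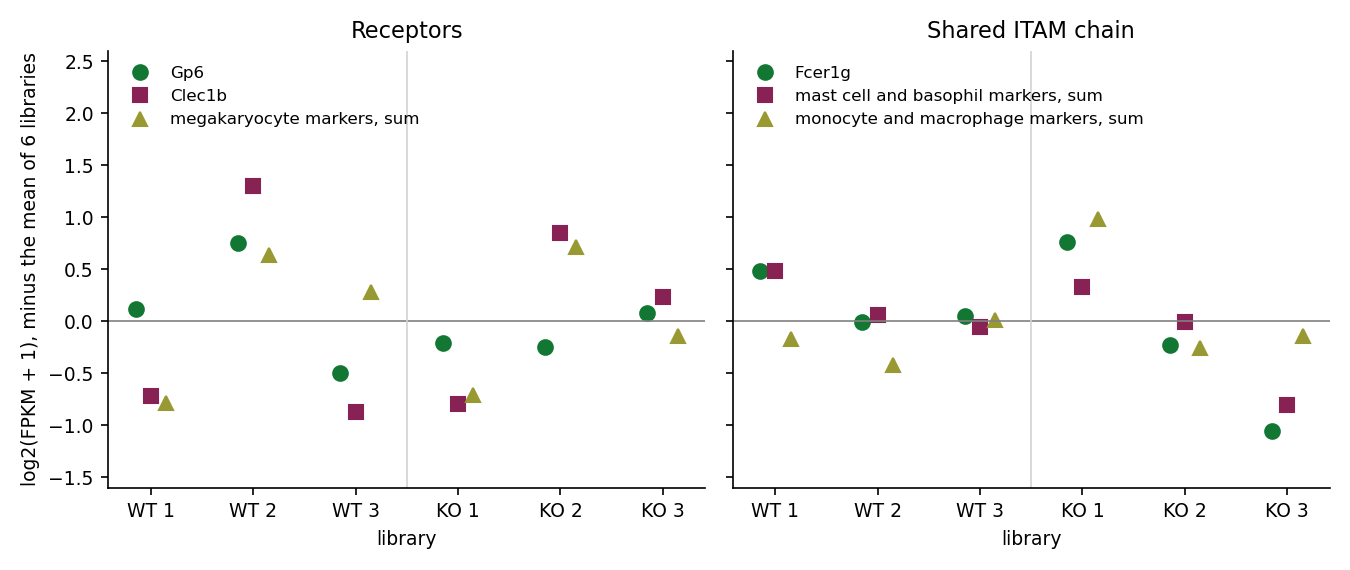
Left, Gp6, Clec1b and the summed megakaryocyte markers; right, Fcer1g and the summed markers of mast cells and basophils and of monocytes and macrophages; each is log2(FPKM + 1) minus its own mean over the 6 libraries, shown per library. Clec1b and the megakaryocyte sum are both high in WT 2 and KO 2 but part in WT 3. Fcer1g and the mast cell sum are both lowest in KO 3 but are highest in different libraries, and the monocyte sum is not lowest in KO 3.

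Genes with profiles like those of the receptors and the gamma chain were ranked by the root mean square difference between log2(FPKM + 1) values, each centred on its own mean over the 6 libraries, among 8461 genes with a mean of at least 5 FPKM (8460 for Fcer1g). Nearest to Fcer1g were Tnf (0.174), Tmem243 (0.195), Il1rl1 (0.226), Lgals9 (0.241) and Plp2 (0.244), against a spread of Fcer1g itself of 0.575. Tnf encodes an inflammatory cytokine and Il1rl1 the interleukin-33 receptor, which was among the mast cell and basophil markers. Nearest to Clec1b were Mgmt (0.240), Trp53inp1 (0.242), Enpp5 (0.270), Car9 (0.274) and Ccpg1os (0.278), against a spread of Clec1b of 0.852. Nearest to Gp6 were Fundc1 (0.1002), Cript (0.112), Orc5 (0.128), Btf3l4 (0.134) and Calcrl (0.143), against a spread of 0.394, at values of Gp6 that were near 0 throughout.

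Other genes of the pathway were taken from 4 lists of 140 genes in all, of which 115 were tested. Of these 0 passed, with or without the block, against 0.0178% of all tested genes without it and 0.0267% with it. Among other ITAM chains and the receptors that pair with them, 0 of 22 tested passed. Of these 15 were above and 7 below WT, against 63.4% of all genes above, with a median of 0.05. That median was −0.019 without WT 1, −0.0081 without WT 2, −0.025 without KO 1 and −0.034 relative to megakaryocyte markers. Over all genes the median was 0.13, 0.0075, 0.0096 and −0.027 in the same settings. Tyrobp (DAP12), an ITAM chain of myeloid and NK cells, was the most abundant, at 328 ± 75.6 FPKM (WT) and 271 ± 32.4 (KO) (mean ± SD of 3 libraries each). Fcgr3, a low-affinity IgG receptor that needs Fcer1g, was at 126 ± 15.01 and 115 ± 31.5, and Clec4e (Mincle), a lectin receptor that also uses Fcer1g, at 56.0 ± 19.0 and 58.1 ± 10.8.

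The IgE receptor chains that share Fcer1g had lower values in KO without passing. Fcer1a was at 24.8, 34.8 and 27.0 FPKM in the WT libraries and at 17.0, 8.84 and 15.5 in the KO libraries. All KO libraries thus lay below all WT libraries for Fcer1a, as they did for 1.03% of all tested genes. Its difference was −1.05 (SE 0.28; limma, unadjusted p = 0.00489, adjusted p = 1.00, and adjusted p = 0.472 with the block). With the block and 1 pair left out, which leaves 4 libraries, Fcer1a passed without pair 1, 2 or 3 (limma, adjusted p = 7.77e-05, 0.025 and 6.08e-05). Those fits called 36, 142 and 118 genes. With so few libraries the SE is drawn largely from other genes. Without pair 1 it was 0.248 for Fcer1a and for Lat alike, while the Fcer1a pairs left were at −1.86 and −0.77. These passes therefore do not measure the spread of Fcer1a itself. Ms4a2 was at 55.5, 51.3 and 38.0 in the WT libraries and at 48.7, 30.9 and 22.0 in the KO libraries. It was lower in 3 of 3 pairs, as were 8.68% of all genes, with overlapping groups. Hcst (DAP10), an adaptor that pairs with NKG2D and carries no ITAM, was at 34.1, 56.4 and 56.7 in the WT libraries and at 32.0, 30.9 and 34.3 in the KO libraries. Both IgE receptor chains belong to the mast cell and basophil markers, whose sum is given above. Of the 10 tested markers of that list, 8 were below and 2 above WT, against 36.6% of all genes below, with a median of −0.30. The part of those cells in the values of Fcer1a and Ms4a2 was not tested. Cd300ld, an activating receptor of myeloid cells, was at 3.01 ± 1.68 FPKM (WT) and 4.52 ± 1.25 (KO) (mean ± SD of 3 libraries each).

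Among other kinases, adaptors and effectors, 0 of 48 tested passed; 42 were above and 6 below WT, against 63.4% of all genes above, with a median of 0.14. That median was −0.027 without KO 1, 0.042 without WT 2, 0.052 relative to megakaryocyte markers and 0.28 after rescaling to a common sum. The median of all genes was 0.0096, 0.0075, −0.027 and 0.22 in the same settings. Of the tested monocyte, macrophage and dendritic cell markers, 21 of 22 were above WT, with a median of 0.44 in all and 1.02 in pair 1; the part of those cells in the list was not tested. Rap1b, the small GTPase that activates platelet integrins, was the most abundant, at 172 ± 20.4 FPKM (WT) and 178 ± 43.0 (KO), followed by Lat2, a relative of Lat, at 113 ± 59.7 and 107 ± 56.8, and Bin2, a membrane-binding protein, at 102 ± 8.17 and 115 ± 28.9 (mean ± SD of 3 libraries each). Among those with the smallest p were Prex1, an activator of Rac, at 19.5 ± 6.11 FPKM (WT) and 26.2 ± 9.53 (KO), Itpr1, a calcium channel of internal stores, at 17.5 ± 3.61 and 21.6 ± 3.82, and the kinase gene Prkcd at 49.8 ± 11.2 and 60.4 ± 15.8 (mean ± SD of 3 libraries each). Zap70, the relative of Syk in T cells, was at 0.12 FPKM in KO 1 and at 0 in the other 5 libraries, while Syk was at 37.4 or more in each; Zap70 was named here after its values were seen.

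Among inhibitory receptors, phosphatases and other regulators listed here as inhibitors, 0 of 34 tested passed. The list name is a label, and the direction in which each gene acts on the pathway was not assessed. Of these 29 were above and 5 below WT, against 63.4% of all genes above. The list had a median of 0.13, against 0.06 for all genes. That median was 0.0086 without KO 1, 0.050 without WT 2, 0.24 without WT 1, 0.038 relative to megakaryocyte markers and 0.29 after rescaling, beside the same monocyte marker values. For all genes it was 0.0096, 0.0075, 0.13, −0.027 and 0.22 in the same settings. Ptprc (CD45), a phosphatase of Src family kinases, was at 82.9 ± 18.3 FPKM (WT) and 87.4 ± 17.1 (KO), Ptpn6 (SHP-1) at 81.2 ± 24.4 and 84.6 ± 16.01, and Pecam1, a receptor with inhibitory tyrosine motifs, at 82.9 ± 9.18 and 79.1 ± 16.7 (mean ± SD of 3 libraries each). Pirb, an inhibitory receptor of myeloid cells, was at 13.7, 9.71 and 15.1 FPKM in the WT libraries and at 31.7, 15.01 and 16.4 in the KO libraries. KO 1 stood apart from the others there, as it did for the monocyte, macrophage and dendritic cell sum; the part of those cells in the Pirb values was not tested. Dgkz, which removes diacylglycerol, was at 33.9 ± 5.85 FPKM (WT) and 43.9 ± 7.52 (KO), Inppl1 (SHIP2) at 2.56 ± 0.95 and 3.69 ± 0.50, and Ptpn22 at 11.3 ± 3.60 and 14.0 ± 1.33 (mean ± SD of 3 libraries each). G6b, the inhibitory receptor of megakaryocytes and platelets, was between 0 and 0.41 FPKM in the 6 libraries, as low as Gp6; it was named here after its values were seen.

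Among other collagen and podoplanin binding receptors and the proteases that shed receptors, 0 of 11 tested passed. Of these 6 were above and 5 below WT, against 63.4% of all genes above. The median was 0.05, or −0.034 relative to megakaryocyte markers and 0.0078 without WT 2. All genes had a median of −0.027 and 0.0075 in those settings. Itgb1, the beta chain of the collagen integrin, was at 93.3 ± 3.22 FPKM (WT) and 87.9 ± 4.60 (KO) (mean ± SD of 3 libraries each). Itga2, the alpha chain that pairs with it to bind collagen, lay between 0.46 and 1.89 FPKM in the 6 libraries (named after its values were seen). Adam17 and Adam10, metalloproteases that shed receptors, were at 79.2 ± 4.67 and 52.7 ± 17.2 FPKM in WT and at 82.2 ± 2.43 and 53.9 ± 21.2 in KO (mean ± SD of 3 libraries each). Cd36, a scavenger receptor that binds collagen, had the smallest p, at 3.97, 1.47 and 8.34 FPKM in the WT libraries and 11.3, 1.82 and 13.7 in the KO libraries. It was higher in 3 of 3 pairs, by 1.30, 0.19 and 0.66, as were 20.4% of all genes in 3 of 3 pairs, with overlapping groups. Next were the alpha integrin gene Itga1, at 5.19 ± 1.37 and 6.72 ± 2.46, and the tetraspanin genes Tspan33, at 4.79 ± 1.35 and 6.05 ± 2.17, and Tspan14, a partner of Adam10, at 28.5 ± 3.50 and 30.8 ± 3.40 (mean ± SD of 3 libraries each).

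**Figure D4:**
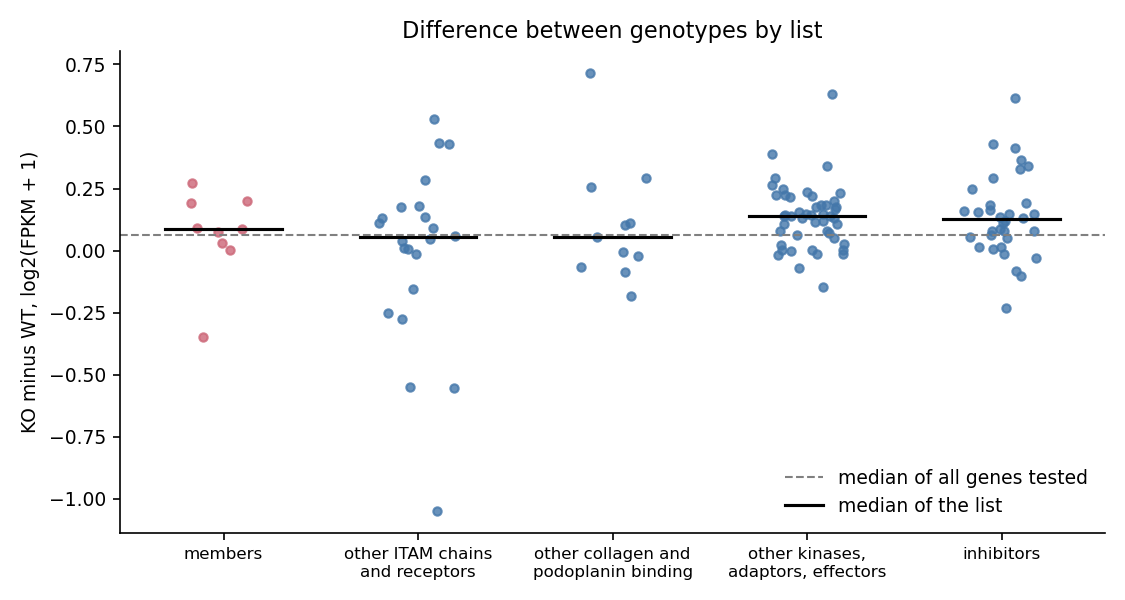
KO minus WT on the log2(FPKM + 1) scale for each tested gene of the members (red) and of the 4 lists of other pathway genes (blue); black bars are list medians and the dashed line is the median of all 11249 genes tested, 0.06. The lowest point among other ITAM chains and receptors is Fcer1a, at −1.05.

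None of the 10 genes lies on chromosome 3, which carries Txnip: on GRCm38.p6 Gp6 and Lat are on chromosome 7, Clec1b on 6, Fcer1g on 1, Lyn on 4, Fyn on 10, Syk on 13, Btk on X, Lcp2 on 11 and Plcg2 on 8.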

How the data were processed

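The deposited table gives FPKM per gene symbol and library with 2 decimals; the authors made these FPKM values with FastQC, Trimmomatic 0.39, STAR 2.7.0a and RSEM 1.2.31 and the mouse build mm9, per the submitters' processing notes. What each tool did, its settings and the annotation: not given in the sources used here. Libraries were grouped by title, and all 6 columns were used. limma 3.58.1 in R 4.3.3 (lmFit, eBayes with a trend, two-sided) compared KO with WT on log2(FPKM + 1), for the 11249 genes that reached 1 FPKM in 3 or more libraries, at an adjusted p of 0.05. On this scale changes of scarce transcripts appear smaller than they are. The script was tested on simulated data. RSEM divides ambiguous reads among related transcripts by a model, so FPKM of paralogs (Lyn and Fyn, for example) are not independent. 1 gene of the lists and 1 culture additive are not reported here.

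Deviations from the group means correlated over genes between libraries of equal number (r = 0.81, 0.59 and 0.38 for numbers 1, 2 and 3), so the numbers were taken to pair the libraries; what a number stands for is not in the labels. The labels do not say whether libraries of a genotype came from separate mice. Xist and Ddx3y set number 3 apart from numbers 1 and 2 by sex, so each genotype holds RNA of at least 2 mice; whether numbers 1 and 2 are separate mice is not given, and p-values measure the spread between these libraries, which may be in part technical. The members and lists were chosen with earlier results of these data known, and 11 of the 140 pathway list genes are also in a marker list. Named were all members and, of each pathway list, the 4 tested genes of smallest p and the 3 of highest level; other names are marked. The 19 alternatives changed the pseudocount, filter, scaling, block, trend or libraries.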

Additional observations from a re-analysis of the deposited data

How the results depend on the processing

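Under each of the 19 alternatives 0 members passed (limma, adjusted p), and Syk and Lyn kept a higher mean in KO, with differences of 0.15 to 0.45 and 0.05 to 0.37. Differences near 0 changed sign elsewhere. With quantile normalization, and with the replicate block and quantile normalization, Fyn was at −0.077 and Lat at −0.030. Relative to megakaryocyte markers, a setting that shifts every gene by the same amount, Fyn was at −0.084, Btk at −0.014, Lat at −0.056 and Plcg2 at −0.0019. Leaving out 1 library at a time gave ranges of −0.20 to 0.89 for Clec1b, −0.82 to 0.092 for Fcer1g, −0.24 to 0.29 for Fyn, −0.11 to 0.24 for Btk, −0.18 to 0.27 for Lat, −0.17 to 0.29 for Lcp2 and −0.035 to 0.19 for Plcg2. With the replicate block and without pair 1 Fyn was at −0.052 and Lat at −0.087, without pair 2 Fyn at −0.25 and Plcg2 at −0.11, and without pair 3 Clec1b at −0.27 and Fcer1g at 0.031.

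Over all genes, 1 passed as higher and 1 as lower, the latter Txnip. Without a filter on low values, and relative to megakaryocyte markers, 1 gene passed in all and 0 as higher. With the replicate block, and with that block and quantile normalization, 2 passed as higher. Leaving out 1 library at a time gave 1 to 3 in all, 0 to 1 as higher and 1 to 2 as lower. With the block and a pair left out, 4 libraries remain and the counts were 36 without pair 1 (9 higher, 27 lower), 142 without pair 2 (94 and 48) and 118 without pair 3 (68 and 50); of the 115 other pathway genes 1, 3 and 3 then passed, among them Fcer1a each time, at −1.32, −0.64 and −1.19, Cd36 without pair 2 (0.98) and Pirb without pair 3 (0.87). Without pair 1 the SE was 0.248 for Fcer1a and Lat and 0.249 for Lyn and Syk, so it was drawn largely from other genes. The larger counts therefore rest little on the spread of each gene, and whether these genes differ was not tested further. Depth is not stated in the file, so no detection limit can be given for Gp6 and Clec1b.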
